A study of Mus musculus with 12 samples.

Results

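The effect of a methionine-restricted diet on liver transcripts, averaged over both genotypes of the study, was measured by setting all 6 arrays of mice on the restricted diet (MR) against all 6 arrays of mice on the control diet (CD), with genotype as a second term in the model. All 12 arrays of the series entered. They formed 4 groups of 3 arrays: KI_MR, KI_CD, WT_MR and WT_CD. KI mice carried the Lmna G609G allele on both chromosomes (Lmna G609G/G609G), a germline knock-in that models Hutchinson-Gilford progeria in mice, and WT mice carried none. All mice were males on the C57BL/6N background, started their diet at 7 weeks of age, and were killed at 110 days of age after 6 hours without food. The sources used here do not give the methionine content of the diets. Nothing in the labels says that the 3 arrays of a group are 3 animals, so the p-values rest on a spread between samples that may be technical.

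Values are log2 intensities of 1 probe set per gene, for 19938 genes. Differences are MR minus CD on the log2 scale ± SE, with 6 arrays per diet, and adjusted p-values come from 1 limma fit over all genes. A gene is said to have risen or fallen where its adjusted p was under the threshold of 0.05. Each of the 12 arrays was also left out in turn, and a call is said to have been kept or lost in these 12 fits.

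Methionine is an essential amino acid that contains sulfur. In hepatocytes it is turned into S-adenosylmethionine, the methyl donor of the cell, and by way of homocysteine into cysteine, taurine and glutathione. When amino acids run short, the kinase GCN2 slows general translation but favours that of the transcription factor ATF4. ATF4 binds amino acid response elements at genes of amino acid synthesis and transport. The gene of the hepatic hormone FGF21 is a well-known ATF4 target, and is also known to respond to methionine restriction.

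The sequences of some raised ATF4 target genes show such an element close to the start of transcription. The letters TGATGNAA were searched on both strands in the 250 bases before each start in the RefSeq promoter table (GRCm38.p6). The following stretches are read along the strand of the gene, with the match in capitals. Capitals that begin with TT are a match on the opposite strand.
Asns (chr6:7693210-7693269, minus strand): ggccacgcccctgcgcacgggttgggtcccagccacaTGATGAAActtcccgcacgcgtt
Slc7a11 (chr3:50443639-50443699, minus strand): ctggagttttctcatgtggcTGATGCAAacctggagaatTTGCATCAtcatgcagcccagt
Vldlr (chr19:27216800-27216859, plus strand): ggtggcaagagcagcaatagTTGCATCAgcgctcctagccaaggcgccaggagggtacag
Pck2 (chr14:55540143-55540202, plus strand): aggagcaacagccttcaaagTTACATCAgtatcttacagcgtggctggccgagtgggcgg
The match of Asns began 23 bases before the start of transcription. The matches of Slc7a11 began 66 and 47 bases before it and that of Pck2 103 bases before it. That of Vldlr began 200 bases before the start of the second transcript in the table. These 4 were printed because the genes belong to the amino acid response list and rose.

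Of the 86 genes raised on MR that had a promoter in the table, 10 held the letters (11.6%), against 1 of 95 lowered genes (1.05%) and 489 of all 15563 genes with a promoter (3.14%). The other raised genes with a match were Gars, Chchd10, Samd8, Slc17a1, Slc7a7 and Trim24, and the lowered one was Hao1. In the amino acid response list 8 of 28 genes with a promoter held them (28.6%), including Fgf21, Chac1, Atf3 and Nupr1, which did not pass the test. A gene counted where any of its starts in the table had a match, so genes with more starts had more chances. The antioxidant response element, searched as TGACNNNGC, was found in 15 of 86 raised genes (17.4%), 14 of 95 lowered genes (14.7%) and 1941 of all genes (12.5%). Asns was among those that held both. In the list of glutathione synthesis genes and NRF2 targets described below, 4 of 15 genes with a promoter held the antioxidant element (26.7%). They were Abcc4, Gclm, Txnrd1 and Ugdh, which did not pass the test. A match is a description of these letters, and binding was not measured.

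Of the 19938 genes, 231 passed the test (1.16%), 109 higher (0.547%) and 122 lower (0.612%) on MR. At an unadjusted p under 0.05 there were 2169. Among the called genes 31 rose and 26 fell by more than 1 on the log2 scale, and 8 and 6 by more than 2. The median size was 0.54. In 120 of the 231 the 6 MR arrays and the 6 CD arrays did not overlap, against 176 of all genes (0.883%). The MR arrays were the higher ones in 59 of these 120 and in 80 of all genes (0.401%), and the lower ones in 61 and in 96 of all genes (0.481%).

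**Figure D1:**
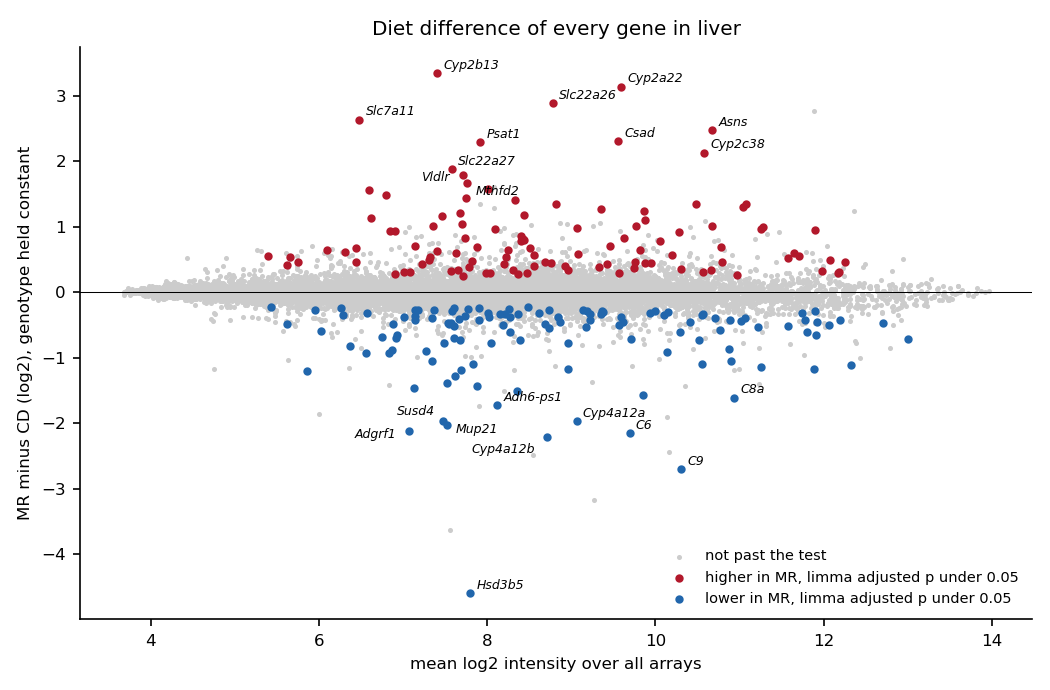
Diet difference of 19938 genes (vertical axis, MR minus CD, log2) against the mean log2 intensity over 12 arrays (horizontal axis). Red and blue points are the 109 genes that rose and the 122 that fell on MR, with the largest of them named, from Cyp2b13 at 3.35 to Hsd3b5 at -4.60.

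2 arrays stood apart from their groups. Across genes, KI_CD replicate 1 correlated with the other arrays of its group at 0.986 on average, and the remaining 11 arrays did so at 0.989 to 0.994. Its stress transcripts Ddit3 (9.11) and Trib3 (9.60) lay above every other array, where they reached 7.74 and 8.03. KI_MR replicate 2 carried skeletal muscle transcripts, with Acta1 at 11.82, Tnnt3 at 11.65 and Ckm at 10.73. The log2 of the summed intensity of 6 muscle markers was 13.3 in that array and between 9.22 and 10.12 in the other 11. Without KI_CD replicate 1, 488 genes passed, and without both arrays 555 did, of which 213 were among the 231. Without KI_MR replicate 2 the count was 253. It was 109 to 152 with any of 9 other arrays left out, and 193 without WT_MR replicate 3. Of the 231 genes, 90 passed in all 12 fits and 125 in at least 6, and every one kept its sign.

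The tissue label was checked with 9 hepatocyte markers, whose summed intensity had a log2 of 16.36 to 16.50 in MR and 16.46 to 16.49 in CD arrays. Albumin (Alb) differed by 0.00 ± 0.04. In whole liver, fewer cells of a type and less RNA per cell cannot be told apart. Of the marker lists of 12 cell types none had a member past the limma test, and each had at most 1 at an unadjusted p under 0.05. The Kupffer cell and macrophage markers had a median difference of -0.08 (10 of 12 below 0), the stellate cell and fibroblast markers -0.15 (9 of 10 below 0) and the endothelial markers 0.03. Lmna, the mutated gene, differed by 0.01 ± 0.10 with diet (limma adjusted p = 0.997). Lamin A and progerin transcripts are read by 1 probe set here, which therefore does not check the genotype labels.

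Many genes of the amino acid response rose on MR. Of 34 measured members 13 rose and none fell, 28 lay above 0, and their median difference was 0.38, against -0.01 for all genes, of which 8857 lay above 0. At an unadjusted p under 0.05 there were 20 members. With 1 array left out the number of raised members was 11 to 17, and without both arrays named above it was 19.

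The asparagine synthetase gene Asns was at 11.97, 11.99 and 11.98 in KI_MR and at 11.11, 8.57 and 9.11 in KI_CD. It was at 12.10, 11.63 and 11.79 in WT_MR and at 9.10, 9.08 and 9.63 in WT_CD. Every MR array lay above every CD array, and the single high CD value was that of KI_CD replicate 1. The difference was 2.48 ± 0.33, or 5.57-fold (limma adjusted p = 0.00457), and without KI_CD replicate 1 it was 2.82.

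The phosphoserine aminotransferase gene Psat1, of serine synthesis, had the same pattern. It was at 9.47, 8.68 and 9.11 in KI_MR, 8.21, 6.13 and 6.15 in KI_CD, 9.06, 8.75 and 9.32 in WT_MR and 6.64, 6.79 and 6.70 in WT_CD. The 2.29 ± 0.31 difference (4.90-fold, limma adjusted p = 0.00457) again came without overlap, with KI_CD replicate 1 as the highest CD array. The other 2 genes of serine synthesis rose too. Phgdh, which encodes its first enzyme, rose by 1.16 ± 0.19 (adjusted p = 0.0124), with 7.44 to 8.52 in MR and 6.46 to 7.28 in CD arrays. Psph, which encodes its last enzyme, rose by 0.43 ± 0.09 (adjusted p = 0.0352), and that call was lost in 10 of the 12 fits, with adjusted p up to 0.0937.

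Mitochondrial folate enzymes take up the one-carbon units that serine gives. Mthfd2, a mitochondrial methylenetetrahydrofolate dehydrogenase, rose by 1.67 ± 0.26 (3.19-fold, limma adjusted p = 0.00905), with a lowest, median and highest level of 7.71, 8.78 and 9.01 in MR and of 6.41, 6.95 and 7.69 in CD arrays. The mitochondrial 10-formyltetrahydrofolate dehydrogenase gene Aldh1l2 rose by 1.57 ± 0.11 (2.96-fold, adjusted p = 6.75e-05). Its MR arrays lay at 7.13, 7.26 and 7.86 and its CD arrays at 5.67, 5.81 and 5.93, in the same order of lowest, median and highest. The 2 genes did not overlap between the diets and kept their calls in all 12 fits. In the list of serine and folate genes 5 of 16 rose and none fell (median 0.16). These 5 are also raised members of the amino acid response list. Shmt2 was at -0.01 and Aldh1l1, the cytosolic counterpart of Aldh1l2, at -0.24, neither past the test.

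Amino acid transporters were a further part of the list. Slc7a11, the cystine/glutamate exchanger that brings cystine into the cell, was at 7.29, 7.85 and 7.81 in KI_MR, 5.81, 4.91 and 4.86 in KI_CD, 8.46, 6.97 and 8.41 in WT_MR and 5.21, 5.25 and 4.95 in WT_CD. All MR arrays lay above all CD arrays. The difference was 2.63 ± 0.26 (limma adjusted p = 7.3e-04). The CD mean was dim, under the lower quartile of all gene levels on those arrays (5.49 to 5.67 over the 12 arrays). The rise is therefore given as at least 4.55-fold, with dim CD arrays raised to that quartile. Slc3a2, the shared heavy chain of such exchangers, rose by 0.97 ± 0.13 and Slc7a5, a light chain that carries large neutral amino acids, by 0.86 ± 0.14. Both kept their calls in all 12 fits. Slc7a7, a light chain for cationic amino acids that was not in the list, rose by 1.04 ± 0.14 (adjusted p = 0.00566).

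Other raised members included the very low density lipoprotein receptor gene Vldlr (1.79 ± 0.19, limma adjusted p = 0.00151). It was at 8.23 to 9.32 in MR and at 6.27 to 7.79 in CD arrays, without overlap. The peptide hormone gene Adm2 rose by 0.71 ± 0.09 (adjusted p = 0.00328), the mitochondrial phosphoenolpyruvate carboxykinase gene Pck2 by 0.68 ± 0.10 and the transcription factor gene Atf5 by 0.64 ± 0.12. Vldlr, Adm2 and Pck2 kept their calls in all 12 fits, while Atf5 lost its call in 8, with adjusted p up to 0.0630.

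**Figure D2:**
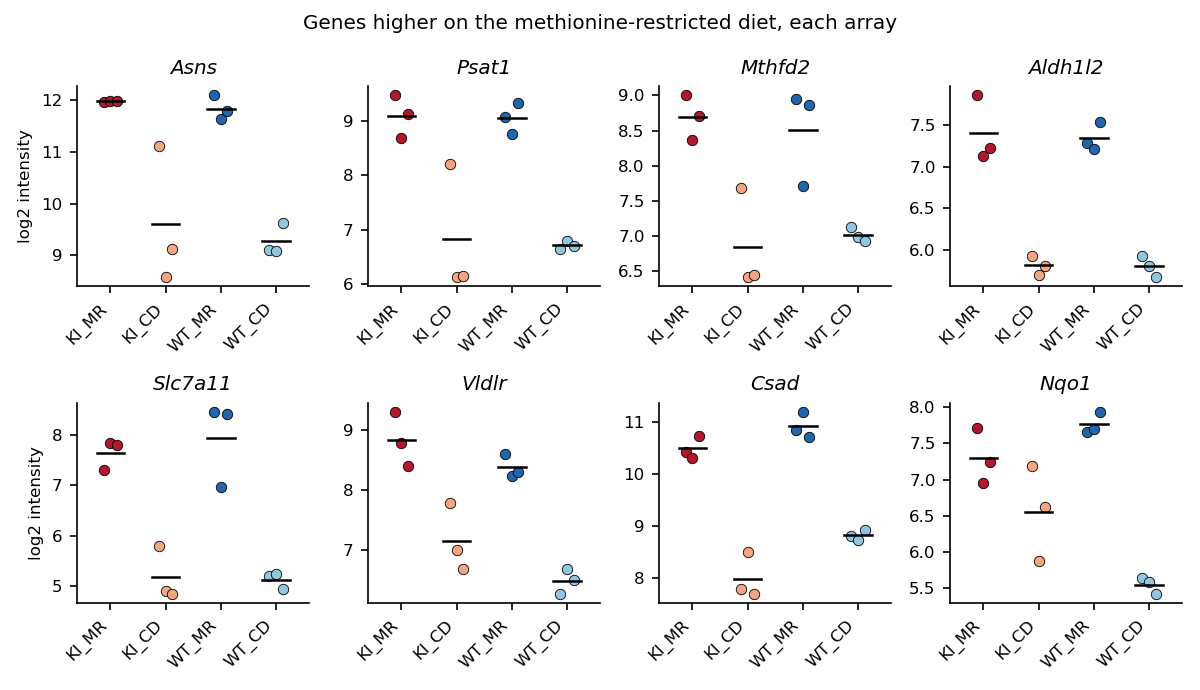
Log2 intensity (vertical axes, 1 scale per gene) of 8 genes that rose on MR, by group, with a point per array and a line at the group mean. The 6 MR arrays lie above the 6 CD arrays for all but Nqo1, and KI_CD replicate 1 is the highest CD array for Asns, Psat1 and Slc7a11.

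Atf4 itself differed by 0.16 ± 0.12 (limma adjusted p = 0.751), Ddit3, which encodes the transcription factor CHOP, by 0.00 ± 0.34, the pseudokinase gene Trib3 by 0.16 ± 0.33 and the glutathione-degrading enzyme gene Chac1 by 0.28 ± 0.24, and none of these 4 passed. KI_CD replicate 1 decided the call of Trib3. Without it Trib3 rose by 0.53 (limma adjusted p = 0.00705), and Ddit3 was at 0.38 and still did not pass (adjusted p = 0.0726). Among aminoacyl-tRNA synthetase genes, which charge tRNAs and include known ATF4 targets, 3 of 18 cytosolic members rose and the median was 0.22. These were Gars (0.71 ± 0.15, adjusted p = 0.0382), Yars (0.46 ± 0.09) and Mars1 (0.43 ± 0.08). That list was drawn up after values were seen. The call of Gars was lost in 10 fits, that of Yars in 10 and that of Mars1 in 6, with adjusted p up to 0.105, 0.0850 and 0.0602. Yars did not pass after median centring (adjusted p = 0.0527).

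In the sulfur amino acid pathway 1 gene of taurine synthesis rose. Csad, the cysteine sulfinate decarboxylase that makes the precursor of taurine, was at 10.43, 10.31 and 10.73 in KI_MR and at 7.77, 8.49 and 7.69 in KI_CD. It was at 10.85, 11.20 and 10.71 in WT_MR and at 8.80, 8.73 and 8.91 in WT_CD. The diets were far apart in both genotypes. Its difference of 2.31 ± 0.15 (4.95-fold, limma adjusted p = 2.03e-05) stayed between 2.22 and 2.40 in the 12 fits. It was the single raised gene among 14 of the transsulfuration, taurine and sulfide list, whose median was -0.01, and none fell. Cdo1, which encodes the preceding enzyme cysteine dioxygenase, differed by 0.06 ± 0.12, Cth, the last step of cysteine synthesis, by 0.21 ± 0.14, and Cbs, the first, by -0.04 ± 0.08, and none of the 3 passed.

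Genes of the methionine cycle showed 1 fall and no rise among 17 measured members (median -0.12). That gene was Aldh7a1, an aldehyde dehydrogenase that acts on betaine aldehyde and in lysine breakdown, at -0.46 ± 0.07 (limma adjusted p = 0.00684), with 11.43 to 11.81 in MR and 12.00 to 12.24 in CD arrays. Mat1a, which makes S-adenosylmethionine in liver, differed by 0.07 ± 0.05, and the glycine methyltransferase gene Gnmt by -0.08 ± 0.11. The betaine-homocysteine methyltransferase gene Bhmt was at -0.77 ± 0.29 (adjusted p = 0.311), and its other probe sets gave -0.82 and -0.43. The nicotinamide methyltransferase gene Nnmt was at -1.19 ± 0.37 (adjusted p = 0.183). Of 13 polyamine and methionine salvage genes none passed by limma (median -0.01), with 1 at an unadjusted p under 0.05.

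Several antioxidant and detoxification genes rose on MR. NRF2 is a transcription factor that is freed under oxidative or electrophilic stress and raises genes of glutathione synthesis and drug metabolism. Of 18 measured members of that list all lay above 0, with a median of 0.46, and 4 rose: Slc7a11, which is also in the amino acid response list, Nqo1, Aox1 and Ephx1. The number was 2 to 8 with 1 array left out, and 11 without KI_CD replicate 1 and KI_MR replicate 2 together. In KI liver the median of the list was 0.25, with 16 of 18 above 0 and 1 past the test. In WT liver it was 0.64, with all 18 above 0 and 5 past the test. The KI values have KI_CD replicate 1 in them.

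The quinone reductase gene Nqo1 was at 7.71, 6.95 and 7.24 in KI_MR, 7.18, 5.88 and 6.61 in KI_CD, 7.66, 7.70 and 7.94 in WT_MR and 5.64, 5.58 and 5.43 in WT_CD. The diets overlapped in KI liver, through KI_CD replicate 1 only, and were wide apart in WT liver. The difference was 1.48 ± 0.28 (limma adjusted p = 0.0286), and the call was lost in 8 of the 12 fits, with adjusted p up to 0.0795. The aldehyde oxidase gene Aox1 rose by 1.24 ± 0.14 (adjusted p = 0.00171) without overlap, at 9.84 to 10.80 in MR and 8.72 to 9.55 in CD arrays, and kept its call in all 12 fits. The epoxide hydrolase gene Ephx1 (0.95 ± 0.18) and the carbonyl reductase gene Cbr1 (0.92 ± 0.19) rose, but lost their calls in 10 and 9 fits, with adjusted p up to 0.0685 and 0.110. Cbr1 did not pass after median centring (adjusted p = 0.0532). Gclc and Gclm, the subunits of the rate-limiting enzyme of glutathione synthesis, were at 0.49 and 0.23 and did not pass. Among 19 glutathione S-transferase genes 1 rose, Gsto1 (0.44 ± 0.06, adjusted p = 0.00671). The median was 0.16 (0.14 in KI and 0.32 in WT liver). Without KI_CD replicate 1 and KI_MR replicate 2 this list had 7 raised members.

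Cytochrome P450 and transporter genes made up many of the largest rises. Cyp2b13, a female-biased P450 of mouse liver, had the largest, at 3.35 ± 0.42 (limma adjusted p = 0.00403). It was at 11.10, 9.68 and 10.85 in KI_MR, 7.58, 5.39 and 6.41 in KI_CD, 7.55, 8.42 and 6.87 in WT_MR and 4.91, 5.29 and 4.81 in WT_CD. Within each genotype the diets did not overlap, while KI_CD replicate 1 reached the WT_MR range. Since 4 of the 6 CD arrays lay under the lower quartile of their array, the rise is given as at least 8.1-fold, with these raised to it. Cyp2a22 rose by 3.14 ± 0.59 (adjusted p = 0.0280), with 10.08 to 12.10 in MR arrays and 7.10 to 8.18 in CD arrays other than KI_CD replicate 1, which was at 10.96. Its call was lost in 9 of 12 fits, with adjusted p up to 0.0786, and without KI_CD replicate 1 and KI_MR replicate 2 the difference was 3.94. Cyp2c38 rose by 2.13 ± 0.30 (adjusted p = 0.00585) and Cyp2c39 by 1.41 ± 0.18 (adjusted p = 0.00447), both without overlap and in all 12 fits. Close paralogs such as these Cyp2b and Cyp2c genes can share signal on arrays.

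Of 13 Cyp2c genes, 2 rose and 1 fell, the arachidonate epoxygenase gene Cyp2c23 (-0.47 ± 0.09, limma adjusted p = 0.0290), which lost its call in 6 fits with adjusted p up to 0.0735. It did not pass after quantile normalization or median centring (adjusted p = 0.0515 and 0.0624). Of 20 organic ion transporter genes of the Slc22 family 2 rose and 1 fell, with a median of 0.01. Slc22a26 rose by 2.89 ± 0.43 (7.4-fold, adjusted p = 0.00827) and its neighbour in sequence Slc22a27 by 1.88 ± 0.31 (adjusted p = 0.0129). Slc22a26 was at 9.34 to 10.93 in MR arrays and at 6.19 to 7.74 in CD arrays, but at 10.34 in KI_CD replicate 1. Slc22a7, which encodes the organic anion transporter OAT2, fell by 1.51 ± 0.22 (adjusted p = 0.00698), with 6.77 to 8.57 in MR and 8.13 to 9.89 in CD arrays. Carboxylesterases, which split esters of lipids and drugs, had 2 rises among 13, Ces1b (1.30 ± 0.15) and Ces1g (0.99 ± 0.16), and 1 fall, Ces3a (-1.11 ± 0.18). These 3 families were listed after values were seen.

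Among carriers of bile acids and drugs, Abcc3, which exports bile acid conjugates to the blood, rose by 1.10 ± 0.20 (limma adjusted p = 0.0248), the drug efflux pump gene Abcb1a by 1.22 ± 0.22 and the organic anion transporter gene Slco1a4 by 1.34 ± 0.27. Other carriers of the bile acid list did not pass, with Abcc2 at 0.02, Slco1b2 at -0.03 and Slc10a1 at 0.00. Among these was also Slco1a1, at -3.17 the lowest value of that list, which is described below with the male-biased genes. Each of the 3 calls was lost in 8 of the 12 fits, with adjusted p up to 0.0685, 0.0642 and 0.0994.

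Male-biased liver genes fell and female-biased liver genes rose on MR in these males, in part of each list. In mice such biases follow from the different pulse patterns of growth hormone in males and females. Of 17 male-biased genes 6 fell and none rose, with a median of -1.04 and 15 below 0. That median lay between -0.26 in KI and -1.95 in WT liver, where 1 and 7 members passed. The KI value has KI_CD replicate 1 in it, where the median level of the list was 7.4. It was 9.4 and 9.6 in the other KI_CD arrays and 6.6 to 7.3 in KI_MR. Of 15 female-biased genes 4 rose and none fell, with a median of 0.64 and 13 above 0 (0.64 in KI and 0.93 in WT liver). With 1 array left out 3 to 12 male-biased genes fell and 2 to 7 female-biased genes rose, and without KI_CD replicate 1 and KI_MR replicate 2 the counts were 13 and 9. With quantile normalization or median centring 4 male-biased genes fell.

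The male-biased steroid reductase gene Hsd3b5 had the largest fall of all genes. It was at 6.30, 5.75 and 5.0 in KI_MR, 5.58, 9.43 and 9.58 in KI_CD, 5.17, 5.25 and 5.52 in WT_MR and 12.22, 11.52 and 12.25 in WT_CD. The MR arrays were all low, and so was KI_CD replicate 1. The difference was -4.60 ± 0.82 (limma adjusted p = 0.0219), at least 20.7-fold with dim arrays raised to the lower quartile. The call was lost in 7 of 12 fits, with adjusted p up to 0.0603, and without KI_CD replicate 1 and KI_MR replicate 2 the difference was -5.55. The omega-hydroxylase genes Cyp4a12b (-2.20 ± 0.28, adjusted p = 0.00388) and Cyp4a12a (-1.97 ± 0.29, adjusted p = 0.00704) fell and kept their calls in all 12 fits. They are near-identical copies that may share signal. For Cyp4a12a the levels were 7.26, 5.46 and 5.75 in KI_MR, 7.51, 8.38 and 8.54 in KI_CD, 9.51, 10.19 and 10.31 in WT_MR and 12.07, 11.73 and 12.05 in WT_CD. Within each genotype the diets did not overlap, but WT_MR arrays lay above KI_CD arrays.

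The major urinary protein genes Mup21 (-2.03 ± 0.43, limma adjusted p = 0.0470) and Mup5 (-0.59 ± 0.12, adjusted p = 0.0318) fell, losing their calls in 10 and 8 fits, with adjusted p up to 0.12 and 0.0808. Neither passed after quantile normalization or median centring. The sulfotransferase gene Sult5a1, the remaining male-biased gene that fell apart from C6, was at -0.49 ± 0.10 (adjusted p = 0.0368) and lost its call in 10 fits, with adjusted p up to 0.0980, and under both scalings. Members of the Mup family share long stretches of sequence, and 3 of 21 listed genes had a probe set of their own. The organic anion transporter gene Slco1a1 was at -3.17 ± 0.73 (adjusted p = 0.0650), since KI_CD replicate 1 was at 6.30 and the other CD arrays at 11.11 to 12.20. Without that array the difference was -3.94 (limma adjusted p = 9.07e-05). Among the female-biased genes Fmo2, a flavin monooxygenase, rose by 1.34 ± 0.24, the acyl-CoA thioesterase gene Acot3 by 1.58 ± 0.27 and the transcription factor gene Cux2, which activates female-biased genes in mouse liver, by 0.83 ± 0.15 (adjusted p = 0.0225, 0.0178 and 0.0195). Acot3 lost its call without WT_CD replicate 1 (adjusted p = 0.0513), Cux2 in 4 fits (adjusted p up to 0.0541) and Fmo2 in 5 (up to 0.0610). The growth hormone axis itself held 1 raised gene of 14, Cux2. Igf1 was at -0.17 ± 0.06 (adjusted p = 0.295) and Igfbp1 at 0.20 ± 0.37.

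On MR, 4 genes of the terminal components of complement, which build the membrane attack complex, fell. They belong to a list of 7 drawn up after values were seen, of which 4 fell and all 7 lay below 0 (median -1.18), and the number was 4 in each of the 12 fits. C9, the pore-forming subunit, was at 7.77, 9.08 and 8.91 in KI_MR, 11.26, 11.52 and 11.42 in KI_CD, 8.63, 8.19 and 11.15 in WT_MR and 11.79, 11.76 and 12.18 in WT_CD. All MR arrays lay below all CD arrays, with WT_MR replicate 3 just under them. The difference was -2.70 ± 0.42 (6.50-fold, limma adjusted p = 0.00988), and without WT_MR replicate 3 it was -3.12.

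C6, which is also male-biased in mouse liver, was at 8.31, 8.64 and 8.49 in KI_MR, 9.88, 10.23 and 10.25 in KI_CD, 8.72, 8.19 and 9.36 in WT_MR and 11.36, 11.03 and 11.84 in WT_CD. It did not overlap between the diets and fell by 2.15 ± 0.23 (4.43-fold, limma adjusted p = 0.00163). C8a and C8b, which encode chains of C8, fell as well (-1.61 ± 0.24 and -1.18 ± 0.19, adjusted p = 0.00827 and 0.0117). The third chain gene C8g (-0.21), C7 (-0.13) and Hc, which encodes C5 (-0.37), did not pass. WT_MR replicate 3 had the highest C8a, C8b and C9 of the MR arrays, and also the highest Orm2 (11.23) and Lcn2 (11.12), 2 acute phase genes. Its Lcn2 stood against 7.72 to 10.20 in the other MR arrays. The part of this array's acute phase transcripts in the complement values was not tested.

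Among 20 other complement genes 3 fell and none rose. Susd4, a membrane inhibitor of complement, fell by 1.97 ± 0.32 (limma adjusted p = 0.0124), the C4b-binding protein gene C4bp was at -0.50 ± 0.07 (adjusted p = 0.00457) and the clusterin gene Clu at -0.43 ± 0.06 (adjusted p = 0.00591). All 3 kept their calls in the 12 fits. Without KI_CD replicate 1 and KI_MR replicate 2, 7 of the 20 fell. Of 17 coagulation factor genes 1 fell, F11 (-1.17 ± 0.16, adjusted p = 0.00566), with 7.99 to 8.78 in MR and 9.04 to 9.95 in CD arrays. The lists of other complement and coagulation genes were likewise made after values were seen.

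**Figure D3:**
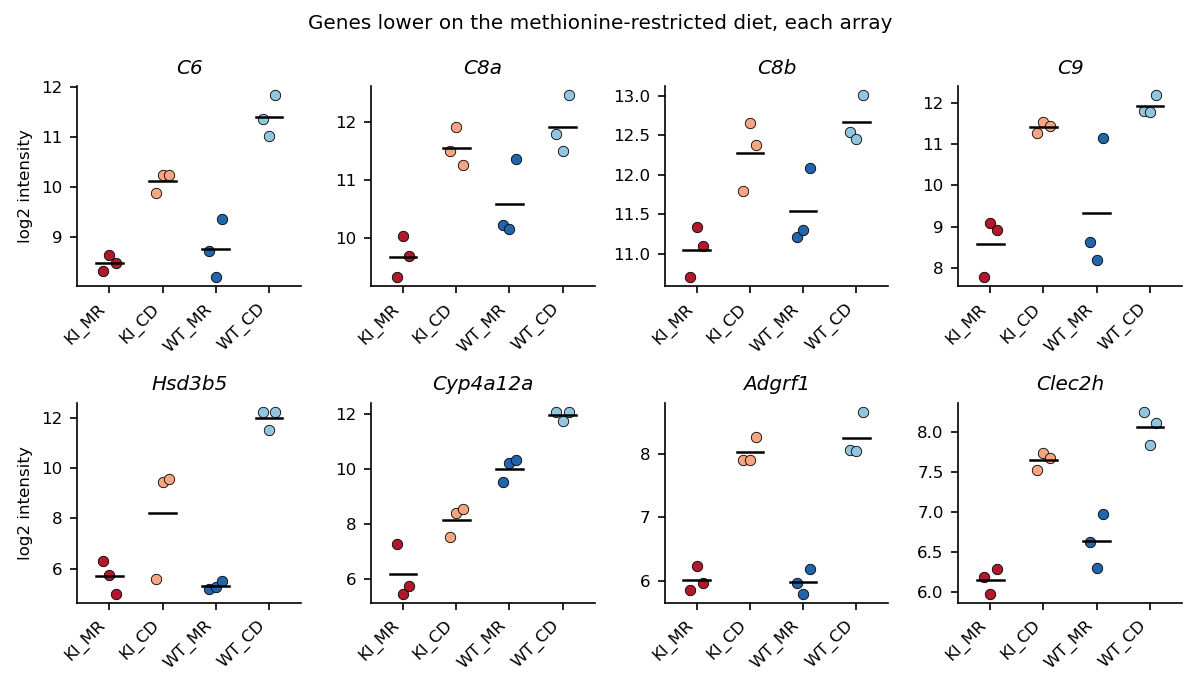
Log2 intensity (vertical axes, 1 scale per gene) of 8 genes that fell on MR, by group, with a point per array and a line at the group mean. C6, C9, Adgrf1 and Clec2h do not overlap between the diets, while Hsd3b5 is low in all MR arrays and in KI_CD replicate 1.

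The fall with the smallest p of all genes was that of the adhesion receptor gene Adgrf1 (-2.13 ± 0.13, 4.37-fold, limma adjusted p = 1.93e-05). Its levels were 5.81 to 6.25 in MR and 7.90 to 8.66 in CD arrays. Clec2h, a C-type lectin gene, fell by 1.46 ± 0.11 (adjusted p = 6.75e-05), at 5.98 to 6.98 in MR and 7.52 to 8.26 in CD arrays. Gpcpd1, which cleaves glycerophosphocholine, fell by 1.58 ± 0.28 (adjusted p = 0.0205), and so did the NKG2D ligand gene Raet1d (-1.44 ± 0.31, adjusted p = 0.0459) and the pseudogene Adh6-ps1 (-1.73 ± 0.30, adjusted p = 0.0192). Adgrf1 and Clec2h kept their calls in all 12 fits. Gpcpd1 lost its call without KI_CD replicate 2 or 3 (adjusted p up to 0.0540), Adh6-ps1 in 4 fits (up to 0.0534) and Raet1d in 9 (up to 0.119). Raet1d did not pass after quantile normalization or median centring either.

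Cholesterol synthesis genes were mostly higher on MR, with 18 of 20 above 0 and a median of 0.52, and 2 rose. The median was 0.30 in KI and 0.68 in WT liver. Fdft1, the squalene synthase gene, rose by 0.52 ± 0.08 (limma adjusted p = 0.0102; a second probe set gave 0.58), with 11.56 to 12.14 in MR and 11.06 to 11.48 in CD arrays. Srebf2, the transcription factor that drives the pathway, rose by 0.40 ± 0.08 (adjusted p = 0.0363) and lost its call in 9 fits, with adjusted p up to 0.0932. The squalene epoxidase gene Sqle was at 1.01 ± 0.22 (adjusted p = 0.0529), and passed without KI_CD replicate 1 (1.12, adjusted p = 0.0184). With 1 array left out 1 to 5 members rose.

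Fatty acid synthesis genes gave no call. None of 23 passed and the median was -0.01, with a median of 0.21 in KI and of -0.20 in WT liver. At an unadjusted p under 0.05 none of them passed either. Scd1 was at -0.01 ± 0.08, Fasn at 0.29 and Srebf1 at -0.38 ± 0.22. Among 25 targets of the lipid sensor PPARA, 1 rose, Acot3, and the number was 0 to 7 with 1 array left out. Their median was 0.24, from 0.06 in KI and 0.43 in WT liver. The P450 gene Cyp4a14 was at 1.25 ± 0.29 and the pyruvate dehydrogenase kinase gene Pdk4 at 1.34 ± 0.36 (adjusted p = 0.0707 and 0.118). Of 23 bile acid genes 2 rose, the carriers Abcc3 and Slco1a4, and the median was -0.03, with 10 at an unadjusted p under 0.05. Cyp39a1, an oxysterol hydroxylase gene, was not in that list and rose by 1.34 ± 0.21 (adjusted p = 0.0102) without overlap.

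Acute phase genes lay below 0 in 22 of 24 cases (median -0.24), and none passed by limma, with 8 at an unadjusted p under 0.05. Apcs, the member with the smallest p, went the other way, at 11.15 to 12.28 in MR and 10.10 to 11.92 in CD arrays. The orosomucoid gene Orm2 was at -2.44 ± 0.68 (adjusted p = 0.134), with 7.37 to 11.23 in MR and 9.80 to 12.58 in CD arrays, and passed without WT_MR replicate 3 (-3.0, adjusted p = 0.0298). Interferon-stimulated genes had 1 fall among 17, Oasl1 (-0.50 ± 0.09, adjusted p = 0.0253), which lost its call in 7 fits, with adjusted p up to 0.0730, and after median centring (adjusted p = 0.0546).

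Of 53 cytosolic ribosomal protein genes 4 rose and none fell. The median difference was 0.17, with all 53 above 0, also after quantile normalization and after median centring, where 9 and 2 rose. The 4 were Rpl23 (0.32 ± 0.06), Rps18 (0.31 ± 0.05), Rps9 (0.30 ± 0.06) and Rps3 (0.25), with limma adjusted p = 0.0225 for Rpl23 and 0.0161 for Rps18. Rps18 lost its call without KI_MR replicate 1 (adjusted p = 0.0516), Rpl23 in 5 fits, Rps3 in 8 and Rps9 in 10, with adjusted p up to 0.109. Many ribosomal protein probe sets match processed copies elsewhere in the genome. The number raised was 0 to 5 with 1 array left out. That list was made after values were seen.

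Clock, zonation and stress lists held few calls. Of 17 clock genes 1 fell, the repressor Bhlhe41 (-1.20 ± 0.12, at least 1.88-fold, limma adjusted p = 7.76e-04), and the median was -0.02. The periportal P450 gene Cyp2f2 fell by 0.72 ± 0.11 (adjusted p = 0.0102) as 1 of 13 periportal genes, with none of 17 pericentral genes past the limma test (7 at an unadjusted p under 0.05). In the unfolded protein response 1 of 21 genes fell, the disulfide isomerase gene Pdia6 (-0.61 ± 0.11, adjusted p = 0.0193), which lost its call without KI_MR replicate 1 or WT_CD replicate 1 (adjusted p up to 0.0554). All 8 urea cycle genes lay below 0 (median -0.19), and none passed by limma, with 3 at an unadjusted p under 0.05. Of 23 cell cycle genes none passed, with 1 at an unadjusted p under 0.05. Their median of -0.11 was 0.0047 without KI_CD replicate 1 and KI_MR replicate 2. Neither the 14 genes of the nuclear lamina and envelope (4 at an unadjusted p under 0.05) nor the 17 p53 targets (4) gave a call by limma on average. The highest difference among the p53 targets was 1.61, and 1 of them passed in WT liver. Gadd45b, the p53 target with the smallest p, was at 7.93 to 9.59 in MR and 6.57 to 8.43 in CD arrays.

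**Figure D4:**
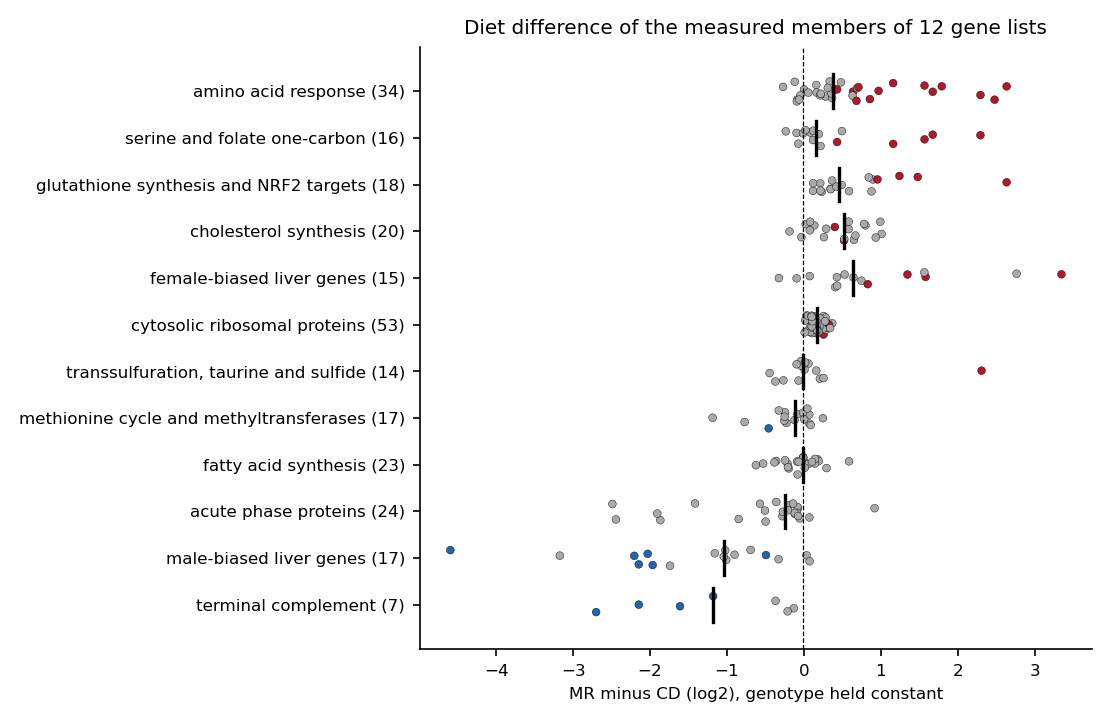
Diet difference (horizontal axis, MR minus CD, log2) of the measured members of 12 gene lists, with the number of members in brackets, a thick line at the list's median and a dashed line at the median of all genes. Red and blue points rose and fell by the limma test. The amino acid response, with 13 of 34 raised, lies to the right and terminal complement, with 4 of 7 lowered, to the left.

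The cytochrome c oxidase subunit gene Cox6a2, an isoform typical of heart and skeletal muscle, rose by 1.44 ± 0.19 (limma adjusted p = 0.00457). Because KI_MR replicate 2 carried muscle transcripts, its levels were read beside the muscle markers. Cox6a2 was at 8.13, 9.15 and 7.69 in KI_MR, 7.13, 7.01 and 6.74 in KI_CD, 8.52, 8.54 and 8.84 in WT_MR and 7.14, 7.15 and 7.02 in WT_CD. The summed muscle markers were at 9.54, 9.55 and 9.36 in the WT_MR arrays and at 9.75, 9.43 and 10.12 in the WT_CD arrays. Without KI_CD replicate 1 and KI_MR replicate 2 the difference was 1.33 (adjusted p = 3.19e-04). The muscle list itself had a median of 0.46 with all arrays and of -0.12 without these 2.

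The average over both genotypes was also set beside the diet difference within each. In a fit of the 4 group means, 35 genes passed in KI (0.176%; 12 higher, 23 lower) and 65 in WT liver (0.326%; 42 higher, 23 lower). Of the 231 genes 27 passed in KI, 42 in WT, 11 in both and 173 in neither. All 231 had the same sign in both genotypes, which choosing them on the average favours, against 56.2% of all genes. Their median size was 0.56 in KI and 0.54 in WT liver.

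No gene passed the test of the difference between the genotypes by limma, where 824 (4.13%) had an unadjusted p under 0.05 and the lowest adjusted p was 0.293. Of the 231 genes 20 did (8.66%). The 5 with the smallest p among them were Cyp2f2, at -1.04 in KI and -0.39 in WT liver, the axonemal dynein gene Dnah11 (0.18 and 0.73), the glutathione peroxidase gene Gpx6 (-1.48 and -0.37), F11 (-0.73 and -1.61) and the transcription factor gene Tcf24 (0.59 and 1.27). The average call of Gpx6 was lost in 11 of the 12 fits with 1 array left out and that of Dnah11, which was dim in CD arrays, in 9 (adjusted p up to 0.123 and 0.109). Gpx6 did not pass after median centring (adjusted p = 0.0649). Hsd3b5 was at -2.51 in KI and -6.68 in WT liver, with a mean CD level of 8.20 in KI and 12.0 in WT liver. Nqo1 was at 0.74 and 2.21 in the same order. The KI differences of Hsd3b5 and Nqo1 have KI_CD replicate 1 in them, which lay within the range of the KI_MR arrays for both genes.

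The hormone gene Fgf21 was at 0.69 ± 0.41 (limma adjusted p = 0.641). It was at 6.87, 6.44 and 6.11 in KI_MR, 7.97, 6.25 and 6.17 in KI_CD, 7.81, 8.81 and 7.76 in WT_MR and 6.48, 6.32 and 6.48 in WT_CD. The WT_MR arrays lay above the WT_CD arrays, and the KI arrays overlapped, with KI_CD replicate 1 the highest of them. The difference between the genotypes was -2.02 ± 0.61 (unadjusted p = 0.00674, limma adjusted p = 1.0), which did not pass, and the KI difference of -0.32 has KI_CD replicate 1 in it. Without that array the average was 1.06, again not past the test (limma adjusted p = 0.0815). Cyp7a1, the gene of the first and rate-limiting step from cholesterol to bile acids, differed by -0.02 ± 0.39. It was at 10.22, 9.35 and 10.77 in KI_MR, 11.59, 10.87 and 11.32 in KI_CD, 12.54, 12.07 and 11.68 in WT_MR and 10.83, 11.02 and 11.12 in WT_CD. It was lower on MR in KI and higher on MR in WT liver, without overlap in either, by -1.15 ± 0.32 and 1.11 ± 0.32 (adjusted p = 0.272 and 0.256). The difference between the genotypes was -2.26 ± 0.46 (adjusted p = 0.652), which did not pass.

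**Figure D5:**
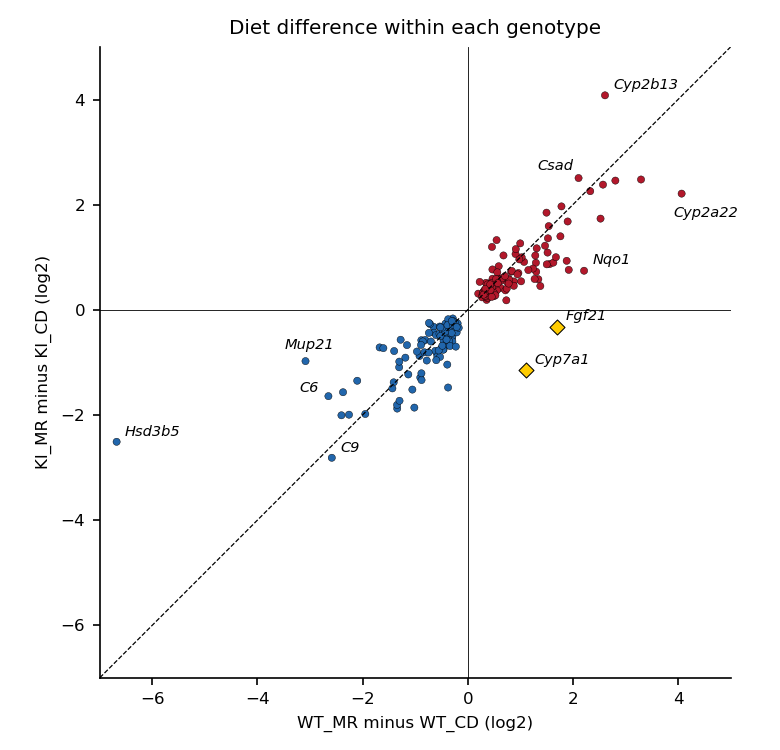
Diet difference in KI liver (vertical axis, KI_MR minus KI_CD, log2) against that in WT liver (horizontal axis, WT_MR minus WT_CD, log2) for the 231 genes that passed on average, red where higher and blue where lower on MR. Yellow diamonds are Fgf21 and Cyp7a1, which did not pass, and the dashed line marks equal differences. Hsd3b5 lies farthest from that line, at -2.51 in KI and -6.68 in WT liver, with KI_CD replicate 1 within the range of the KI_MR arrays.

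Other genes of the progeria and bile acid literature did not pass on average. Cyp8b1, which sets the share of cholic acid, differed by -0.51 ± 0.42 (limma adjusted p = 0.792), with 6.32 to 10.39 in MR and 8.19 to 10.74 in CD arrays. The citrate transporter gene Slc13a5 was at -0.71 ± 0.20 (adjusted p = 0.143), from -1.34 in KI and -0.08 in WT liver.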

How the data were processed

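Liver RNA of 12 samples was hybridised after biotin labelling, per the labels' protocols. The deposited values are linear intensities, whole numbers from 10 to 20042 with array medians of 82 to 90. How their background was corrected and how arrays were scaled is unknown from the labels and the table. Their log2 was taken with no further scaling. Of 35512 probe sets 21789 carried 1 gene symbol, 1621 several and 12102 none; 1 probe set stood for a gene, the brightest on average over the 12 arrays (19938 genes, 999 with several). By Entrez identifier 19856 genes were found in the RefSeq gene table (GRCm38.p6), with 0 symbols changed.

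Diet was tested in limma 3.58.1 (R 4.3.3) in an additive model with genotype (9 residual and 3.08 prior degrees of freedom), two-sided, with p-values adjusted by the Benjamini-Hochberg method over all of them. A fit of the 4 group means gave the differences within genotypes and their difference. The fit was tested on simulated data. Members and lists were chosen with earlier results of these data known, and lists are described by counts and medians without a test. Considered for naming were the 14 largest rises and falls past the threshold with the same sign in both genotypes, leaving out predicted loci. So were in each list the members with the smallest p (at most 4), and fixed methionine, bile acid and progeria genes. The 5 called genes with the smallest p for the difference between genotypes were added. Not every list member considered is printed. Further called genes were chosen after their values were seen. No detection calls were used: a diet mean was treated as dim where it fell under the lower quartile of all gene levels on those arrays. The labels give no batch or date, and the number of arrays limits the precision. The alternatives tried were median centring or quantile normalization of the arrays, dropping the dimmest 25% or 50% of genes, other uses of the probe sets, an intensity trend with robust prior, array weights, a replicate block, a fit without genotype, a minimum change of 0.5, 16 units added before log2, and each array left out. Leaving out KI_CD replicate 1 and KI_MR replicate 2 together was chosen after seeing the data. Other steps ran in Python 3.11.15 (pandas 2.3.3, numpy 2.4.6), with plots by matplotlib 3.10.9.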

Additional observations from a re-analysis of the deposited data

Results flagged for a closer look

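Among the 6 arrays of each diet, 36 of 356 gene and diet groups had 1 array far from the other 5 by Dixon's test at the 95% level (10.1%), where chance gives about 1 in 20. These groups hold both genotypes. The gene values below are log2 intensities.

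KI_CD replicate 1 accounted for 18 of them. It was higher than the other CD arrays for the genes raised on MR Cyp2a22 (10.96), Slc22a26 (10.34), Psat1 (8.21) and Slc22a27 (8.33), for the hormone gene Fgf21 (7.97), and for the cell cycle kinase genes Cdk1 (7.63) and Plk1 (7.22) and the lipid droplet gene Cidec (8.46). It was also set apart for Susd4 (6.23) and Slco1a1 (6.30), which lay at their MR levels, and for the pseudokinase gene Trib1 (7.75, below the other CD arrays), Cdh1 (10.20), Otc (11.39), Mup3 (11.56), Reln (10.34), Pdgfrb (8.35), Epcam (6.11) and Krt19 (7.67). KI_MR replicate 2 stood out for the muscle genes Ckm (10.73), Tnni2 (9.95), Myh4 (8.84) and Mylpf (7.29).

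The other 14 were spread over 7 arrays. WT_MR replicate 3 stood out for Oaz2 (8.25), Ifit3 (8.88), Bhlhe40 (8.67) and Cd68 (9.54), and KI_MR replicate 3 for Otc (11.83), Epcam (6.04) and Krt19 (8.69). WT_MR replicate 2 stood out for Mpo (6.13) and Prss2 (5.67), WT_CD replicate 2 for Xbp1 (11.42) and Ltf (6.19), KI_MR replicate 1 for Irs1 (9.26), KI_CD replicate 2 for Fads2 (12.26) and WT_CD replicate 1 for Clec4f (10.16).

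The diet difference of Cyp7a1 was lower in KI than in WT liver by -2.26 (KI minus WT, log2), with every KI_MR array below every KI_CD array and every WT_MR array above every WT_CD array. The test of this difference missed the threshold (limma adjusted p = 0.652), and 59 of all 19938 genes (0.296%) showed such opposite directions without overlap.

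The comparison by gene leaves out 13723 probe sets with several gene symbols or none. In a separate fit, adjusted over all 35512 probe sets, 32 of the 13723 passed, 20 higher and 12 lower on MR. That fit called 192 of all 35512, so the share among the left-out probe sets was the smaller one. What the probe sets without a symbol measure was not examined.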

How the results depend on the processing

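The 231 genes that passed on average became 627 with array weights, 101 without genotype in the model and 8 with a minimum change of 0.5, and were 109 to 488 with 1 array left out and 555 without KI_CD replicate 1 and KI_MR replicate 2. Median centring gave 169, with 98 higher and 71 lower, and quantile normalization 228, with 126 higher and 102 lower, against 109 and 122. The replicate block gave 238, of which 195 were among the 231. Deviations from the group means correlated from -0.059 to 0.244 between the 18 pairs of arrays with the same replicate number (median 0.099) and from -0.247 to 0.197 between the 36 others (median -0.043). 11 of 12 arrays were closest to their own number, a hint from the data only, and since not every correlation was over 0.1 the numbers were not taken as pairs. The 35 genes in KI liver became 18 with median centring and 130 with array weights, were 34 with the replicate block and 7 to 94 with 1 array left out, and were 157 without both arrays. The 65 in WT liver became 2204 with array weights, where WT_MR replicate 1 took a weight of 16.7, were 74 with the replicate block and 17 to 199 with 1 array left out, and were 212 without both arrays. The difference between the genotypes gave 0 to 3 genes with 1 array left out and 1 without both. Why these counts moved was not tested, except that fewer arrays or a stricter call enter by construction in some. Of the 93 called genes followed singly, none changed sign under any of these settings, and of their 1200 values other than with 1 array left out 198 missed the threshold, 113 of them by a setting other than the minimum change. Without array detection calls, falls into dim signal are lower bounds.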

Other observations

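Several genes of metal, heme and neurotransmitter handling outside the lists rose on MR, chosen here after their values were seen. Slc39a4, which imports zinc, rose by 1.18 ± 0.17 (limma adjusted p = 0.00684), with 8.38 to 9.25 in MR and 7.47 to 8.19 in CD arrays. Maoa, a monoamine oxidase gene, rose by 0.67 ± 0.08 (adjusted p = 0.00332), also without overlap, and the biliverdin reductase gene Blvrb by 0.68 ± 0.10 (adjusted p = 0.00721). All 3 kept their calls with any 1 array left out. The iron exporter gene Slc40a1 rose by 0.45 ± 0.09 (adjusted p = 0.0368) and lost its call in 8 of 12 such fits, with adjusted p up to 0.0971. Ggct, which acts in glutathione breakdown, was at 0.54 ± 0.12 (adjusted p = 0.0489) and lost its call in 9. Slc40a1 and Ggct did not pass after median centring either.

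Some genes of peroxisomes and acyl-CoA handling were also chosen after their values were seen, with no list behind them. Abcd2, which carries long-chain acyl-CoA into peroxisomes, rose by 1.26 ± 0.23, the carnitine acetyltransferase gene Crat by 1.01 ± 0.21 and the 2-hydroxyacyl-CoA lyase gene Hacl1 by 0.55 ± 0.10 (limma adjusted p = 0.0225, 0.0416 and 0.0291). With 1 array left out these calls were lost in 7, 10 and 7 of 12 fits, and that of Crat also after quantile normalization. The sterol carrier protein gene Scp2 was at -0.65 ± 0.09 and the glycolate oxidase gene Hao1 at -0.91 ± 0.13, both lower on MR in all 12 fits (adjusted p = 0.00447 and 0.00725). Scp2 lay at 11.21 to 11.85 in MR and at 11.94 to 12.64 in CD arrays.

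Other falls with small p-values were those of Itih5, an inter-alpha-trypsin inhibitor heavy chain gene (-0.88 ± 0.08, limma adjusted p = 4.4e-04), the thiopurine methyltransferase gene Tpmt (-0.58 ± 0.07, adjusted p = 0.00334), the D-lactate dehydrogenase gene Ldhd (-0.71 ± 0.10, adjusted p = 0.00566) and the interferon regulatory factor gene Irf5 (-0.73 ± 0.10, adjusted p = 0.00671). Each kept its call in all 12 fits. Gulo, the last enzyme of vitamin C synthesis in mice, fell by 0.61 ± 0.11 (adjusted p = 0.0225) without overlap, and lost its call in 4 fits.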
